A study of Rattus norvegicus with 3 samples.

Results

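Melatonin synthesis was followed through 6 enzyme genes, Tph1, Ddc, Aanat, Asmt, Gch1 and Mat2a, on 3 rat expression arrays. The genes were chosen by name: every probe set, a group of short oligonucleotides read as 1 value, that the platform annotation gives to a single member symbol was read on every array. All 6 genes had at least 1 such probe set, 9 probe sets in all, out of 4736 genes with a single symbol on the array. The samples belong to a time course with total RNA hybridised once for 0.0 h, once for 0.1 h and once for 1.0 h. Their labels name the same source for all 3, the pineal gland and the adrenal medulla, without saying which sample held which tissue. No source used here gives the treatment, strain, age or number of animals. The labels name no agent or genotype, so whether one sets the arrays apart is not known. They give the hours only as a measurement, without the event from which these are counted. No difference below could be checked on a replicate or tested, since each time has 1 array, and that number limits how precise the values are.

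The pineal gland turns tryptophan into melatonin. Tph1 hydroxylates tryptophan, Ddc decarboxylates the product to serotonin, Aanat acetylates serotonin and Asmt methylates the result to melatonin. Gch1 starts the synthesis of tetrahydrobiopterin, the cofactor of Tph1, and Mat2a makes S-adenosylmethionine, the methyl donor of Asmt. In the rat, noradrenaline released onto the gland at night acts through cyclic AMP and strongly raises Aanat transcription, while the homeodomain factors Crx and Otx2 keep the genes of the pinealocyte active. Ddc and Gch1 also serve the synthesis of catecholamines, so their signal may come from either tissue named in the labels. In RNA from whole tissue, fewer cells of a type and less RNA per cell cannot be told apart.

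The promoter windows of 3 members are shown because Asmt and Mat2a were the 2 members at least 2-fold apart between arrays on their brightest probe set, and because Aanat is the member best known for control by cyclic AMP. Each is a RefSeq window on the rat assembly GRCr8, 250 bases before to 50 bases after the gene's annotated start, read 5′ to 3′ on the gene's strand. Capitals mark matches, on either strand, to the cyclic AMP response element TGACGTCA, its core TGACG, the Crx and Otx2 site TAATCC, the CCAAT box, the E-box CACGTG of the clock factors and the TATA box TATAAA; the core overlaps the full element. The Asmt window is chr12:21423287-21423586 on the minus strand, the Mat2a window chr4:106053563-106053862 on the minus strand and the Aanat window chr10:102326073-102326372 on the plus strand.
Asmt: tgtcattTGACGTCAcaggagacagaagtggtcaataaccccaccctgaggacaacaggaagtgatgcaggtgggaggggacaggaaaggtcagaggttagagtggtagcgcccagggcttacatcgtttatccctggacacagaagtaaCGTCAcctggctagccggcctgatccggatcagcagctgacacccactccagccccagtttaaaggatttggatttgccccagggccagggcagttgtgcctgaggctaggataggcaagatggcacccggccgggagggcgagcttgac
Mat2a: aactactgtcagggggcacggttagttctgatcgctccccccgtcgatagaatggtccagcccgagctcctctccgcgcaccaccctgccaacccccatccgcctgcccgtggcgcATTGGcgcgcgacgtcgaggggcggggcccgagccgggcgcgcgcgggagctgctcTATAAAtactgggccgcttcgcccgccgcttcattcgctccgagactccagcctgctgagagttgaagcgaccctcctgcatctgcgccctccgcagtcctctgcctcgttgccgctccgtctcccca
Aanat: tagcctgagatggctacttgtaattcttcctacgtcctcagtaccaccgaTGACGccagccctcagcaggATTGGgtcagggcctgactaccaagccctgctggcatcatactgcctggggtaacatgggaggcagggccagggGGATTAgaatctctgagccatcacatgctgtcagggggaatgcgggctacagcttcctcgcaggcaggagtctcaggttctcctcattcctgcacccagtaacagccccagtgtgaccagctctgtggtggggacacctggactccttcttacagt

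The Asmt window held the full cyclic AMP response element, which begins 243 bases before the start, and another core that begins 100 bases before it. The full element was found in 1.83% and the core in 21.2% of all 33469 RefSeq promoter windows of 300 bases. The Aanat window held 1 core beginning 200 bases before the start, 1 Crx and Otx2 site beginning 106 bases before it, which 7.17% of all windows hold, and 1 CCAAT box, which 37.5% hold. The Mat2a window held a CCAAT box and a TATA box, the latter present in 14.2% of all windows. CACGTG, present in 6.42% of all windows, was in none of the windows of the 6 members. Among the windows of the other members, Gch1 held 1 core and a CCAAT box, and Tph1 only a CCAAT box. Ddc has 3 annotated starts; of their windows 1 held a TATA box, 1 a CCAAT box and 1 no match. These matches describe letters in the windows and are no evidence of binding.

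The deposited values are linear intensities. They were scaled so that the arrays had equal medians over those probe sets that every array showed above a floor, and that floor, below which a level was not read, was an intensity of 262.9, the 40th percentile of all values. After scaling, between 58.8% and 60.9% of the 8740 non-control probe sets were above the floor on any 1 array. A difference was counted when 2 arrays, both above the floor, were at least 2-fold apart, which is 1 on the log2 scale. The SD of the log2 differences over all probe sets was 0.53 between 0.1 h and 0.0 h, 0.44 between 1.0 h and 0.0 h and 0.56 between 1.0 h and 0.1 h; it describes how far apart 2 of these arrays lie on a typical probe set and is not a replicate error. Of the pinealocyte markers other than the members, 8 of 9 with a probe set were above the floor on all arrays, among them phosducin (Pdc). Of the adrenal medulla markers this held for 6 of 11, which were Pnmt, Chgb, Slc6a2, Npy, Ret and Penk. The other 5 were below the floor on every array: Th and Dbh, which define catecholamine cells, and Slc18a1, Phox2a and Gata3. The beta-actin control was 10.4, 17.8 and 44.4 times brighter at its 3' end than at its 5' end at 0.0 h, 0.1 h and 1.0 h, and GAPDH 15.3, 18.6 and 14.1 times, a sign of RNA quality whose part in the results below was not tested.

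Tph1 and Ddc, which make serotonin, were bright on every array. The single Tph1 probe set, X53501cds_at, read 22074 at 0.0 h, 16982 at 0.1 h and 22618 at 1.0 h. The 0.1 h array was the lowest, by 1.30-fold against 0.0 h and 1.33-fold against 1.0 h, and 0.0 h and 1.0 h were 1.02-fold apart. All of these differences were smaller than the SD over all probe sets, the largest being 0.74 of it. The single Ddc probe set, M84648mRNA_s_at, read 19644, 20198 and 13210. Its 0.0 h and 0.1 h values were nearly level, at a log2 difference of 0.04, and the 1.0 h array was the lowest, 1.49-fold below 0.0 h and 1.53-fold below 0.1 h. These 2 differences were 1.30 and 1.09 times the SD over all probe sets. Of 4775 probe sets compared between 1.0 h and 0.0 h, 529 had a lower difference than Ddc.

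Aanat, which acetylates serotonin, was the dimmest against the floor. Its probe set U38306_s_at read 253.0 at 0.0 h, just below the floor, 400.8 at 0.1 h and 506.0 at 1.0 h. The 0.1 h and 1.0 h values were therefore at least 1.52-fold and at least 1.92-fold above what the floor allows at 0.0 h, and between them the log2 difference was 0.34, or 0.60 of the SD over all probe sets. With the floor at the 20th percentile, an intensity of 82.1, the 0.0 h value counts as measured, and Aanat then lay 1.00 on the log2 scale above 0.0 h at 1.0 h and just met the 2-fold rule. Quantile and cyclic loess normalisation also placed the 0.0 h value above the floor and gave log2 differences of 0.86 and 0.88 for 1.0 h against 0.0 h. Aanat was lowest at 0.0 h and highest at 1.0 h under each of the 5 scalings tried.

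Asmt, the last enzyme of the pathway, was highest at 0.1 h. Its probe set L78306_at read 5746 at 0.0 h, 13864 at 0.1 h and 9167 at 1.0 h. The 0.1 h array was 2.41-fold above 0.0 h, a log2 difference of 1.27 or 2.41 times the SD over all probe sets, and 134 of 4743 probe sets had a larger one. The 1.0 h value lay between the other 2, 1.60-fold above 0.0 h and 1.51-fold below 0.1 h. Mat2a, which supplies the methyl donor, had the same order of arrays. Its probe set J05571_s_at read 1326, 2858 and 1632, and the 0.1 h array was 2.16-fold above 0.0 h, at a log2 difference of 1.11 that 217 of the 4743 probe sets exceeded. At 1.0 h Mat2a was 1.23-fold above 0.0 h and 1.75-fold below 0.1 h.

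Gch1, the entry enzyme of tetrahydrobiopterin synthesis, was the only member with several probe sets, and these gave different patterns. The brightest, M58364_at, read 84601, 60041 and 81553 at 0.0 h, 0.1 h and 1.0 h, so that 0.1 h was the lowest, 1.41-fold below 0.0 h. E03424cds_s_at read 9997, 8534 and 8702, and its 3 values were at most 1.17-fold apart. The dimmest, rc_AA943102_s_at, read 526.1, 595.7 and 543.7, at most 1.13-fold apart. The last, rc_AI043643_at, read 2745, 3803 and 1092. This probe set was highest at 0.1 h and lowest at 1.0 h, 2.51-fold below 0.0 h and 3.48-fold below 0.1 h. Only 48 of 4775 and 28 of 4833 probe sets had lower differences in these comparisons. Between 1.0 h and 0.1 h the log2 differences of these 4 probe sets, in the order given, were 0.44, 0.03, -0.13 and -1.80, so the direction of Gch1 depends on the probe set read. The mean over all 4 gave -0.37, against 0.44 for the brightest alone.

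**Figure D1:**
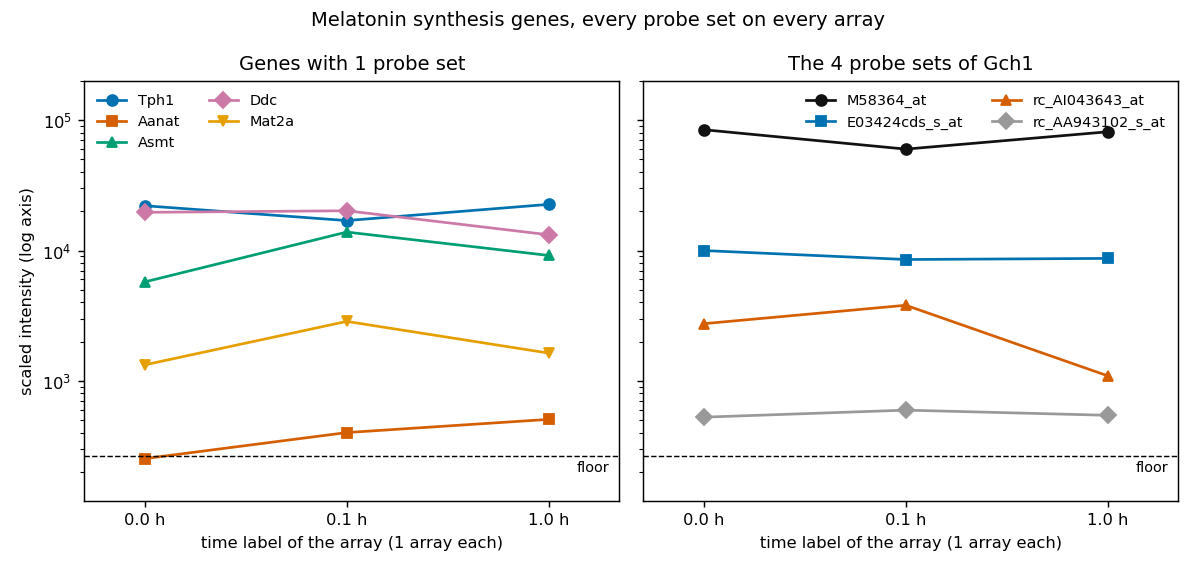
Scaled intensity (log axis) of the 5 members with 1 probe set (left) and of the 4 Gch1 probe sets (right) on the arrays labelled 0.0 h, 0.1 h and 1.0 h. Each point is 1 array and the dashed line is the floor at 262.9. Asmt and Mat2a peak at 0.1 h, at 13864 and 2858, Aanat is below the floor at 0.0 h only, and rc_AI043643_at alone among the Gch1 probe sets is lowest at 1.0 h by over 2-fold.

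Between 0.0 h and 0.1 h, with each gene read from its brightest probe set, 5 of the 6 members were above the floor on both arrays, 2 of them (Asmt and Mat2a) at least 2-fold higher at 0.1 h and none at least 2-fold lower. Of all 2994 genes measured there, 5.68% reached 2-fold upward and 4.71% downward. Over single probe sets the same 2 of 8 were higher and none lower, beside 6.2% and 4.34% of all probe sets. The members' log2 differences ran from -0.49 (Gch1) to 1.27 (Asmt) with a median of 0.04, against -0.002 over all genes. The higher members were thus the methylating enzyme and the maker of its methyl donor, while Tph1, Ddc and the brightest Gch1 probe set lay within 1 SD of no difference. Asmt and Mat2a stayed at least 2-fold apart on the values as deposited and after quantile or cyclic loess normalisation. When the arrays were scaled to the 9 spike-in hybridisation controls instead, the log2 differences were 0.995 and 0.83, and the count of members at least 2-fold higher was 0. That scaling shifts every gene of an array by the same amount and moved the median of all genes to -0.28. The distance of Asmt and Mat2a from that median therefore could not change, and it says nothing on which scaling is right.

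At 1.0 h against 0.0 h, none of the 5 measured members was at least 2-fold apart on its brightest probe set, where 2.34% of 3029 genes reached 2-fold upward and 2.64% downward. The members ran from -0.57 (Ddc) to 0.67 (Asmt) on the log2 scale, with a median of 0.04 beside 0.01 for all genes. Against 0.1 h, all 6 were measured and none was at least 2-fold apart, where 4.04% of 3043 genes reached 2-fold upward and 5.06% downward. Mat2a, Ddc and Asmt were lower, at -0.81, -0.61 and -0.60, and Aanat, Tph1 and Gch1 higher, at 0.34, 0.41 and 0.44, with a median of -0.13 beside 0.002. Spike-in scaling moved the median of all genes to 0.21 and 0.47 in the comparisons with 0.0 h and 0.1 h. In the last of these Ddc and Asmt then lay at -0.14 and -0.12 and Tph1 and Gch1 at 0.89 and 0.91. Their order could not change, since the shift is the same for every gene. Over single probe sets, rc_AI043643_at of Gch1 was the 1 of 8 and the 1 of 9 at least 2-fold lower, where 2.58% and 5.48% of all probe sets were; none of the members' probe sets was at least 2-fold higher, as 2.89% and 3.87% of all were. Its log2 differences stayed below -1 under each of the 5 scalings. Both comparisons with 0.0 h share that array, as those with 0.1 h share the 0.1 h array, so their values are not independent of each other.

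**Figure D2:**
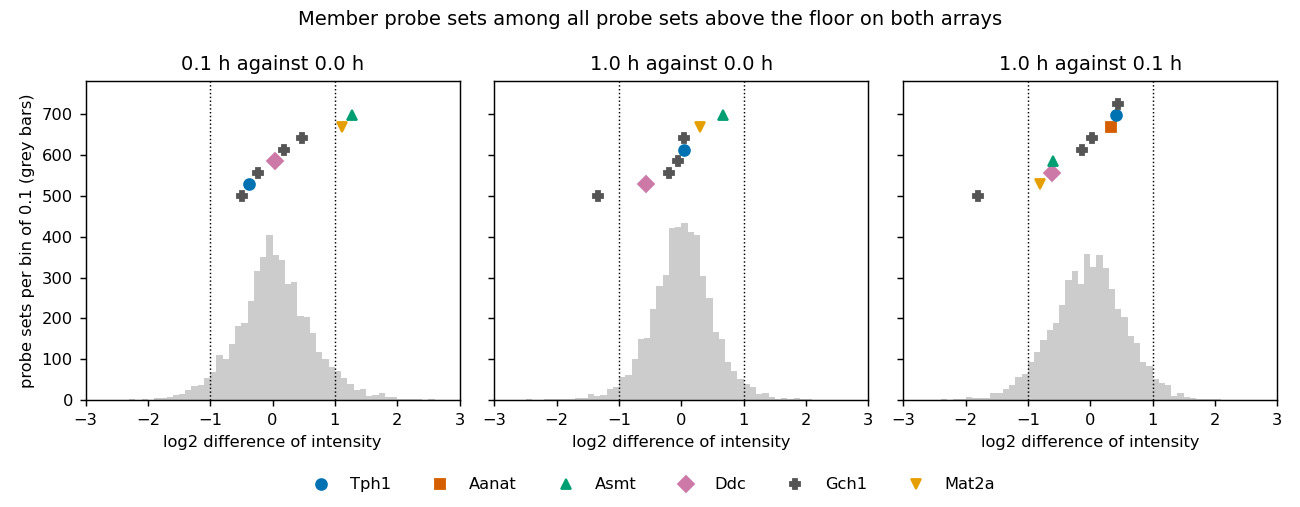
Number of probe sets (grey bars, bins of 0.1) by log2 difference for the 4743, 4775 and 4833 probe sets measured on each pair of arrays, with each member probe set as a coloured symbol whose height only separates the symbols. Dotted lines mark 2-fold. Asmt (1.27) and Mat2a (1.11) lie beyond the upper line between 0.1 h and 0.0 h, and 1 Gch1 probe set lies beyond the lower line at -1.33 and -1.80 in the other panels.

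The scaling also decides how the whole array splits, which is the background for these counts. Between 1.0 h and 0.0 h 71 genes were at least 2-fold higher and 80 lower, and the values as deposited gave 90 and 66 and spike-in scaling 153 and 40. Between 1.0 h and 0.1 h the counts were 123 and 154, against 174 and 126 as deposited and 512 and 30 with spike-in scaling. Between 0.1 h and 0.0 h they were 170 and 141, against 80 and 305 with spike-in scaling. No scaling brought the brightest probe set of Tph1, Ddc or Gch1 to 2-fold in any comparison, although values near 0 changed sign: with spike-in scaling Ddc was at -0.24 between 0.1 h and 0.0 h and Gch1 at 0.14 between 1.0 h and 0.0 h.

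**Figure D3:**
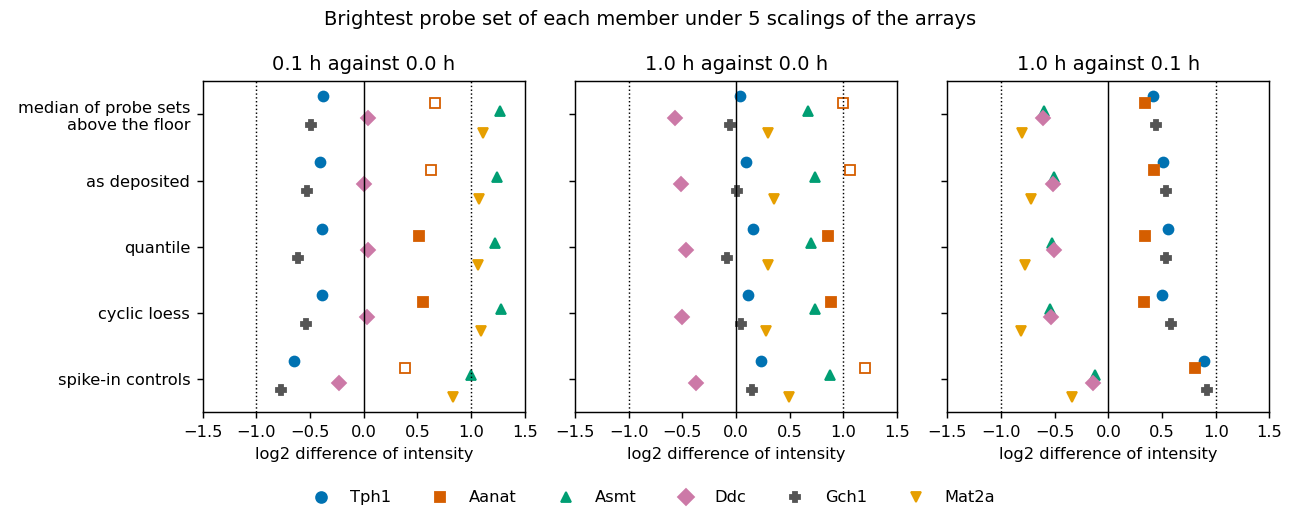
Log2 difference of the brightest probe set of each member in the 3 comparisons (panels) under 5 scalings of the arrays (rows); open symbols mark a value with 1 of the 2 arrays below the floor, and dotted lines mark 2-fold. Asmt and Mat2a lie beyond 2-fold between 0.1 h and 0.0 h in the first 4 rows and at 0.995 and 0.83 in the row scaled to spike-in controls.

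Genes that feed or use the cofactors of the pathway were read next, from lists chosen with earlier results of these data known. In the tetrahydrobiopterin list 4 of 6 genes had a probe set and all 4 were measured. Pts, the enzyme after Gch1, read 822.1, 1695 and 1246 at 0.0 h, 0.1 h and 1.0 h and was 2.06-fold higher at 0.1 h than at 0.0 h; its log2 difference of 1.04 became 0.98 with quantile normalisation and 0.77 with spike-in scaling, both under 2-fold. Qdpr, which recycles the cofactor, read 2824, 4312 and 2005 and was 2.15-fold lower at 1.0 h than at 0.1 h, a log2 difference of -1.10 that became -0.63 with spike-in scaling. The mean with its other probe set, which was not measured at 1.0 h, gave -1.77 for that comparison and -1.26 in place of -0.49 for 1.0 h against 0.0 h. Spr, the last enzyme of its synthesis, and Gchfr, the feedback regulator of Gch1, were at most 1.19-fold apart between any 2 arrays. The list's median log2 difference was 0.43 for 0.1 h against 0.0 h, with 1 gene at least 2-fold higher and none lower, 0.09 for 1.0 h against 0.0 h with none at 2-fold on its brightest probe set, and -0.32 for 1.0 h against 0.1 h with 1 lower.

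In the list of the methionine and S-adenosylmethionine cycle 7 of 12 genes had a probe set and 4 were measured between 0.1 h and 0.0 h. Ahcy, which removes the product that methyltransferases such as Asmt leave behind, read 887.2, 2843 and 1397. It was 3.20-fold higher at 0.1 h than at 0.0 h and 2.03-fold lower at 1.0 h than at 0.1 h, the order of arrays that Asmt and Mat2a had. The difference at 0.1 h stayed beyond 2-fold under each of the 5 scalings, with a lowest log2 value of 1.40, whereas that between 1.0 h and 0.1 h fell short of 2-fold on the values as deposited (-0.93) and with spike-in scaling (-0.55). Gamt, a methyltransferase of creatine synthesis, read 2078, 1444 and 853.2 and was 2.44-fold lower at 1.0 h than at 0.0 h. Averaging its 2 probe sets, of which the other was too dim on at least 1 array of each pair, moved that log2 difference from -1.28 to -0.49. The list median was -0.11 for 0.1 h against 0.0 h with 1 gene at least 2-fold higher, 0.24 for 1.0 h against 0.0 h with 1 lower, and -0.76 for 1.0 h against 0.1 h with 1 lower. Mat1a, which encodes the liver form of the enzyme, and Bhmt, which remakes methionine, were below the floor on every array.

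**Figure D4:**
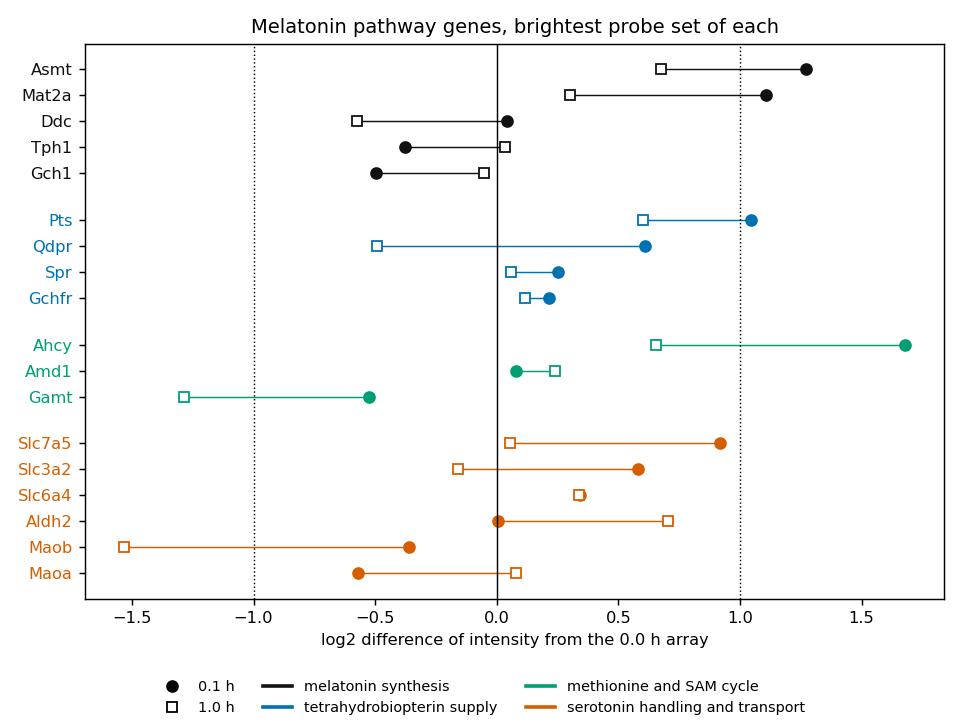
Log2 difference from the 0.0 h array at 0.1 h (filled circles) and 1.0 h (open squares) for the genes of 4 lists (colours) with all 3 arrays above the floor, each read from its brightest probe set; dotted lines mark 2-fold. Asmt, Mat2a, Pts and Ahcy lie beyond 2-fold at 0.1 h, with Ahcy farthest at 1.68, and Gamt and Maob lie beyond it on the lower side at 1.0 h, at -1.28 and -1.53.

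In the list of serotonin handling and transport 14 of 16 genes had a probe set and 6 were measured in each comparison. Maob, a monoamine oxidase that breaks down amines, read 6646, 5171 and 2299, and was 2.89-fold lower at 1.0 h than at 0.0 h and 2.25-fold lower than at 0.1 h. The log2 difference from 0.0 h was -1.33 with spike-in scaling, and that from 0.1 h was -0.70 and so under 2-fold. Slc3a2, the heavy chain of the transporter that brings in large neutral amino acids such as tryptophan, read 13219, 19778 and 11846, at most 1.67-fold apart. No other gene of the list was at least 2-fold apart, and the list medians were 0.17, 0.07 and -0.37 for 0.1 h against 0.0 h, 1.0 h against 0.0 h and 1.0 h against 0.1 h. The vesicular amine transporter genes Slc18a1 and Slc18a2 were below the floor on every array. Of the melatonin receptor and breakdown list only Cyp1b1 was measured in any comparison; it encodes a cytochrome P450. Its brightest probe set read 18054, 12006 and 15573 and was lower at 0.1 h than at 0.0 h, with a log2 difference of -0.59, while its other 2 measured probe sets were higher, at 1.02 and 0.96. Cyp1a2, whose product hydroxylates melatonin in the liver, read 229.5, 288.3 and 141.3 and was above the floor at 0.1 h only.

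The adrenergic and cyclic AMP genes that control Aanat in the pineal gland gave mixed values. Of 35 genes 26 had a probe set, and of the 15 measured between 0.1 h and 0.0 h 1 was at least 2-fold higher and 1 lower, with a median of 0.10. Adra1d, an alpha-1 adrenergic receptor gene, read 370.2, 845.8 and 612.5 and was 2.28-fold higher at 0.1 h than at 0.0 h. With spike-in scaling its log2 difference was 0.92. The other probe set of Adra1d was too dim on at least 1 array of each pair. Pde4b, a phosphodiesterase gene that ends cyclic AMP signals, read 32597, 9254 and 29466 on its brightest probe set, so 0.1 h was 3.52-fold below 0.0 h and 1.0 h 3.18-fold above 0.1 h. The mean of its 4 probe sets, of which the other 3 were too dim on at least 1 array of each pair, turned these log2 differences from -1.82 to 0.11 and from 1.67 to -0.28. Prkar2b, a regulatory subunit of protein kinase A, read 3250, 3074 and 1549 and was 2.10-fold lower at 1.0 h than at 0.0 h; with spike-in scaling its log2 difference was -0.87. Between 1.0 h and 0.0 h it was the 1 gene of 15 at least 2-fold lower and none was higher, at a median of -0.02, and between 1.0 h and 0.1 h Pde4b was the 1 of 16 higher and none was lower, at a median of -0.17. The beta-1 receptor gene Adrb1 and Creb1, which encodes the factor that binds the cyclic AMP response element, were below the floor on every array. Dio2, a target of cyclic AMP in the pineal gland named here after its values were seen, read 31.9, 184.2 and 283.0 and so was above the floor at 1.0 h only. Other genes of this list differed from it. Crem read 574.2, 684.0 and 569.7 on its brightest probe set, and Fosl2 was below the floor on every array. Dusp1 read 251, 139 and 462 on its brightest probe set, lowest at 0.1 h and above the floor at 1.0 h only.

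Of the pineal transcription factors 6 of 12 had a probe set, and Crx and Otx2 were not among them. The 5 measured had medians of 0.40 and 0.22 for 0.1 h and 1.0 h against 0.0 h, with none at 2-fold, and of 0.08 for 1.0 h against 0.1 h, with 1 lower. Rorb, a nuclear receptor gene of the pineal gland and retina, read 1003, 1621 and 796.2 and was 2.04-fold lower at 1.0 h than at 0.1 h, with a log2 difference of -1.03 that became -0.93 on the values as deposited and -0.55 with spike-in scaling. Neurod1, a factor of pinealocytes and neurons, read 9571, 12658 and 13426 on its brightest probe set. Its other probe set gave log2 differences of 0.07 and -0.28 for 0.1 h and 1.0 h against 0.0 h, against 0.40 and 0.49 on the brightest.

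Markers of the cell types that the tissue could hold were set beside the members, and each sum of intensities is given with and without its brightest gene, which carries much of it. All sums use the scaling to equal medians and were not made under the other scalings. Scaling to the spike-in controls moves every gene down at 0.1 h and up at 1.0 h against 0.0 h. The controls' mean log2 differences from 0.0 h were 0.28 and -0.20 at these times. Where sums lie closer than this, their order of arrays depends on the scaling. The 9 pinealocyte markers summed to 43648 at 0.0 h, 51559 at 0.1 h and 32185 at 1.0 h, and to 24166, 28454 and 23022 without Pdc. Pdc itself read 19482, 23104 and 9163, and was 2.13-fold lower at 1.0 h than at 0.0 h and 2.52-fold lower than at 0.1 h; with spike-in scaling these log2 differences were -0.89 and -0.86. On the scaling used for the sums, both were lowest at 1.0 h, as Ddc was, and highest at 0.1 h, as Asmt and Mat2a were. Tph1 was lowest at 0.1 h.

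The order of arrays that Asmt and Mat2a had was also found in some markers of other cells and not in others. How large a share of all genes had this order was not counted, so these matches have no background to be read against. S100b, a glial marker that pinealocytes may also express, read 1335, 3665 and 2357 on its brightest probe set and was 2.74-fold higher at 0.1 h than at 0.0 h. Its other probe set was too dim on at least 1 array of each pair. The mean of both gave log2 differences of 0.28 at 0.1 h and -0.21 at 1.0 h against 0.0 h, so this order did not hold on the mean. Ptprc, a marker of all leukocytes, read 285.5, 722.9 and 503.3 on its brightest probe set and was 2.53-fold higher at 0.1 h than at 0.0 h. Its 0.0 h value was close to the floor of 262.9, and its other probe sets were too dim on at least 1 array of each pair. On the scaling used for the sums, the astrocyte and glia sum was highest at 0.1 h, at 85935, 95271 and 92288 over 9 genes. Without Glul it was 20844, 26187 and 25879. Of these genes 6 were above the floor on all arrays. On that scaling the brightest probe sets of Vim and Glul also had the order of Asmt and Mat2a. Between 1.0 h and 0.1 h, however, their log2 differences were only -0.08 and -0.06. Spike-in scaling, which moved the median of all genes to 0.47 there, put both highest at 1.0 h. Glul was also highest at 1.0 h on the values as deposited and after quantile or cyclic loess normalisation. Slc1a3, Slc1a2 and Aldoc did not have the order of Asmt and Mat2a, with log2 differences of -0.22, -0.04 and -0.53 for 0.1 h against 0.0 h. The median of the list for that comparison was 0.02.

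The other lists were mixed, and some sums turned on 1 gene. The 11 adrenal medulla markers summed to 73538, 74885 and 57238, most of it chromogranin B (Chgb) at 64522, 61125 and 48336, and the rest summed to 9016, 13760 and 8902. Npy, a neuropeptide gene on that list, read 544.0, 373.2 and 813.8 and was 2.18-fold higher at 1.0 h than at 0.1 h. The 10 macrophage and leukocyte markers, 6 of them above the floor on all arrays, summed to 24224, 31555 and 13560. Without Spp1 they summed to 5969, 8346 and 6987, which on this scaling is the order of arrays of Asmt and Mat2a. Spp1 alone was 2.78-fold lower at 1.0 h than at 0.0 h and 3.53-fold lower than at 0.1 h. Cd74, which serves antigen presentation, was 2.01-fold higher at 1.0 h than at 0.1 h on its brightest probe set. The other probe sets of Cd74 were too dim on at least 1 array of each pair. The median log2 difference of this list between 1.0 h and 0.0 h was 0.25. The 6 endothelial markers, 4 of them above the floor on all arrays, summed to 7931, 7244 and 7058, or 4659, 4747 and 4839 without Vcam1, and Icam1, at 1472, 2562 and 1822, had that order too. The 5 erythroid markers, 4 of them above it, summed to 9159, 8483 and 10112, or 5422, 5347 and 5610 without Hbb, and the other globin gene named, Hbb-b1, read 2785, 2417 and 3295. Of the 8 adrenal cortex markers only Fdx1 was above the floor on all arrays, at 18709, 11136 and 15072 on its brightest probe set. Its other probe set gave log2 differences of 0.01 and 0.10 for 0.1 h and 1.0 h against 0.0 h. Cyp21a1 was below the floor at 0.1 h. The part of tissue or cell content in these differences was not tested.

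For each member the genes with the most similar pattern were taken as those with the smallest distance between their 2 log2 differences from 0.0 h, over 3 arrays and 2916 genes above the floor on all of them. For Asmt these were COX2, a mitochondrially encoded respiratory chain subunit, Gpr15lg and Wee1, at distances of 0.04, 0.07 and 0.08. For Mat2a they were Ndufa4l2, Bcl2 and Sfpq, at 0.05, 0.05 and 0.06. For Tph1 they were Rala, Gsk3b and Wipf3, for Ddc Gyg1, Trhr and Foxn3, and for Gch1 on its brightest probe set Gak, Zmym4 and Safb. Within a distance of 0.25 lay 31 genes for Asmt and 49 for Mat2a, against 155 for Ddc, 247 for Gch1 and 309 for Tph1. With 3 arrays such likeness describes only the order and size of 3 values, and many genes share it.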

How the data were processed

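The deposited values are linear probe set intensities of 3 rat arrays, 1 per time label. How the authors summarised probe sets, corrected background and scaled arrays is not given in the sources used here. Of 8799 probe sets 59 controls were left out of counts. Names came from the platform annotation: 7006 probe sets had 1 symbol, 308 several and 1426 none, and only the first kind was named. Intensities were taken to log2, the floor was the 40th percentile after median scaling, and the arrays were then shifted by 0.008, 0.042 and -0.05 so that medians above the floor were equal. Each gene was represented by the probe set whose log2 values had the highest mean. No test was run; a difference counted at 2-fold with both arrays above the floor. The SD of log2 differences came from the median absolute deviation. Members and lists were chosen with earlier results of these data known. Named from each pathway and marker list were up to 4 genes at least 2-fold apart, or the 2 brightest where fewer than 2 were. Nearest in pattern were 3 genes per member. Spr, Gchfr, Mat1a, Bhmt, Slc18a1, Slc18a2, Adrb1, Creb1, Dio2, Th and Dbh were named outside this rule, after their values were seen. The same holds for Pnmt, Slc6a2, Ret, Penk, Phox2a, Gata3, Crem, Fosl2, Dusp1, Vim, Slc1a3, Slc1a2 and Aldoc. Alternatives were the deposited scaling, quantile, cyclic loess (limma 3.58.1, R 4.3.3) and spike-in scaling, floors at the 20th and 60th percentiles, and the mean or the second-brightest probe set. Scaling and counting were tested on simulated data. Promoter windows were matched by symbol for all 6 members.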

Additional observations from a re-analysis of the deposited data

How the results depend on the processing

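No paired analysis was possible because each time label has 1 array. The number of members at least 2-fold higher between 0.1 h and 0.0 h was 0 with spike-in scaling and 2 under each other alternative, and between 1.0 h and 0.0 h it was 1 (Aanat) when the floor was lowered to the 20th percentile, and 0 otherwise; no member was at least 2-fold lower on its brightest probe set under any of the 8 alternatives. List medians moved by more than the SD over all probe sets in 8 of 144 values. The receptor and breakdown list, which rests on 1 gene, gave 0.28 and 0.96 for 0.1 h against 0.0 h and 0.35 and 0.41 for 1.0 h against 0.0 h on the mean and the second-brightest probe set, and between 1.0 h and 0.1 h it gave -0.55 on the second-brightest and -0.33 with the lower floor. The methionine list gave 0.88 on second-brightest probe sets for 0.1 h against 0.0 h and -0.16 with the lower floor for 1.0 h against 0.1 h. The sign changed in 28 of the 144 medians, so small medians have no settled direction. Over all probe sets, 294 higher and 206 lower between 0.1 h and 0.0 h became 587 and 428 with that floor and 169 and 133 with the one at the 60th percentile; between 1.0 h and 0.0 h, 138 and 123 became 403 and 322 or 59 and 70, and between 1.0 h and 0.1 h, 187 and 265 became 454 and 522 or 99 and 172. The mean of its probe sets turned Pde4b to 0.11 and -0.28. The cause of these shifts was not tested, except that the spike-in shift is the same for every gene.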
